A study of Mus musculus with 40 samples.

Results

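The transcriptional states that TGFβ and bFGF produced in TAK1-intact cardiac fibroblasts were compared directly. The comparison took the 4 RNA-seq libraries titled LacZ with TGFβ and the 4 titled LacZ with bFGF, chosen by their titles and paired by replicate number, out of 40 libraries in 10 groups. All 8 came from cardiac fibroblasts of adult male mice with genotype C57BL/6J_TAK1fl/fl, in which LoxP sites flank an exon of Map3k7, the gene of the kinase TAK1. The exact age of the mice was not given in the sources used here. The cells were used at passage 1, carried an adenovirus that expresses LacZ from the CMV promoter in place of Cre, and were serum-starved and given 10 ng/ml TGFβ or 20 ng/ml bFGF for 24 h. Both ligands were therefore applied to cells that kept TAK1, and each ligand was used at a single dose and time. The medium in which the fibroblasts had been grown before starvation itself contained serum and bFGF, so the bFGF group returned to a factor that the cells had met before. Starved LacZ cells without ligand (4 libraries) served as the reference level for either ligand. The same ligand comparison in cells with a Cre-expressing adenovirus (iCre, TAK1 deleted, 4 libraries per ligand) was used to ask whether the contrast differed without TAK1.

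TGFβ binds a pair of receptor kinases that phosphorylate SMAD2 and SMAD3, and in cardiac fibroblasts it is the classical inducer of the myofibroblast, a contractile, matrix-secreting cell that builds scar. bFGF (FGF2) binds FGF receptors and signals mainly through RAS, ERK and ETS-family transcription factors; it is a mitogen for fibroblasts and is used to keep them in culture. ERK signaling induces its own brakes, the DUSP phosphatases and Sprouty proteins, and transcripts of these brakes are common readouts of the pathway.

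The 8 libraries held between 29853838 and 51228185 counts, and levels are given as CPM (counts per 1000000 after TMM scaling). Intervals and floors given from reads cover counting error only. The fibroblast genes Col1a1, Col1a2, Col3a1, Vim and Pdgfra were abundant in all 8 libraries, the lowest of these being Pdgfra at 239.8 CPM in a TGFβ library. They belong to a list of 10 fibroblast markers, on which Tcf21 was less abundant, and 4 of the 10 were higher and 5 lower with TGFβ. Replicates with the same number moved together. Over 13038 genes, deviations from the group mean of same-numbered TGFβ and bFGF libraries correlated at Pearson's r between 0.435 and 0.608, and each library was closest to its own number, so the number was kept as a block in the fit. Replicate 2 stood apart from the others in both groups for some genes. H19, an imprinted noncoding RNA chosen here after its values were seen, lay at 157 CPM in replicate 2 with TGFβ and at 285 CPM in replicate 2 with bFGF, against at most 8.56 and 9.39 CPM in the other replicates. The library names of replicate 1 belong to a separate range of numbers from those of replicates 2 to 4, and what that range marks is not stated. Fold changes between the ligands that moved by over 1.5 times without replicate 1 or 2 are given with and without it. The strand setting of the counts was not stated, so the values of Scx, Shmt1, Csf1r, Has3 and Snhg14, which lie opposite the more highly counted Bop1, Smcr8, Hmgxb3, Chtf8 and Ube3a, of Cxcl10, which lies opposite Art3, a gene with more counts than it in the TGFβ group, and of Tnni3, which overlaps Dnaaf3, are uncertain.

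The 2 ligands left a large part of the measured transcriptome at different levels. Of 25210 genes tested, 3778 were higher with TGFβ (15%) and 4154 were higher with bFGF (16.5%) at an adjusted p of at most 0.05 (edgeR quasi-likelihood test, Benjamini-Hochberg adjustment, n = 4 pairs). With a change of at least 1 on the log2 scale as well, 1157 were higher with TGFβ and 2263 with bFGF. All 4 TGFβ libraries lay above all 4 bFGF libraries for 14.1% of genes and below them for 13.3%. The median log2 fold change over all genes tested, TGFβ minus bFGF, was -0.07, and values below 0 are higher with bFGF throughout. This split rested on the scaling. The TMM factors were 0.793 to 0.863 with TGFβ and 1.01 to 1.13 with bFGF. With raw library sizes instead, an alternative chosen after seeing the data, 1785 genes were higher with TGFβ and 7920 with bFGF, and the median of all genes was -0.42. With the GC correction the balance turned, at 4343 higher with TGFβ and 3794 with bFGF. Counts of genes on either side are therefore relative to the typical gene.

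The reference group gave the size of each ligand's own response. TGFβ against no ligand called 5020 genes higher (19.9%) and 5908 lower (23.4%), and bFGF against no ligand called 3456 higher (13.7%) and 3205 lower (12.7%). With raw library sizes the TGFβ response split into 2567 higher and 9622 lower and the bFGF response into 2884 and 3872. With the GC correction the bFGF response split into 3151 higher and 3525 lower. These 2 comparisons share the same 4 control libraries, and the bFGF count was the less stable of the pair, as it was 3173 in total without the replicate block against 6661 with it. Counts of gene list members called below can be read against these shares over all genes.

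**Figure D1:**
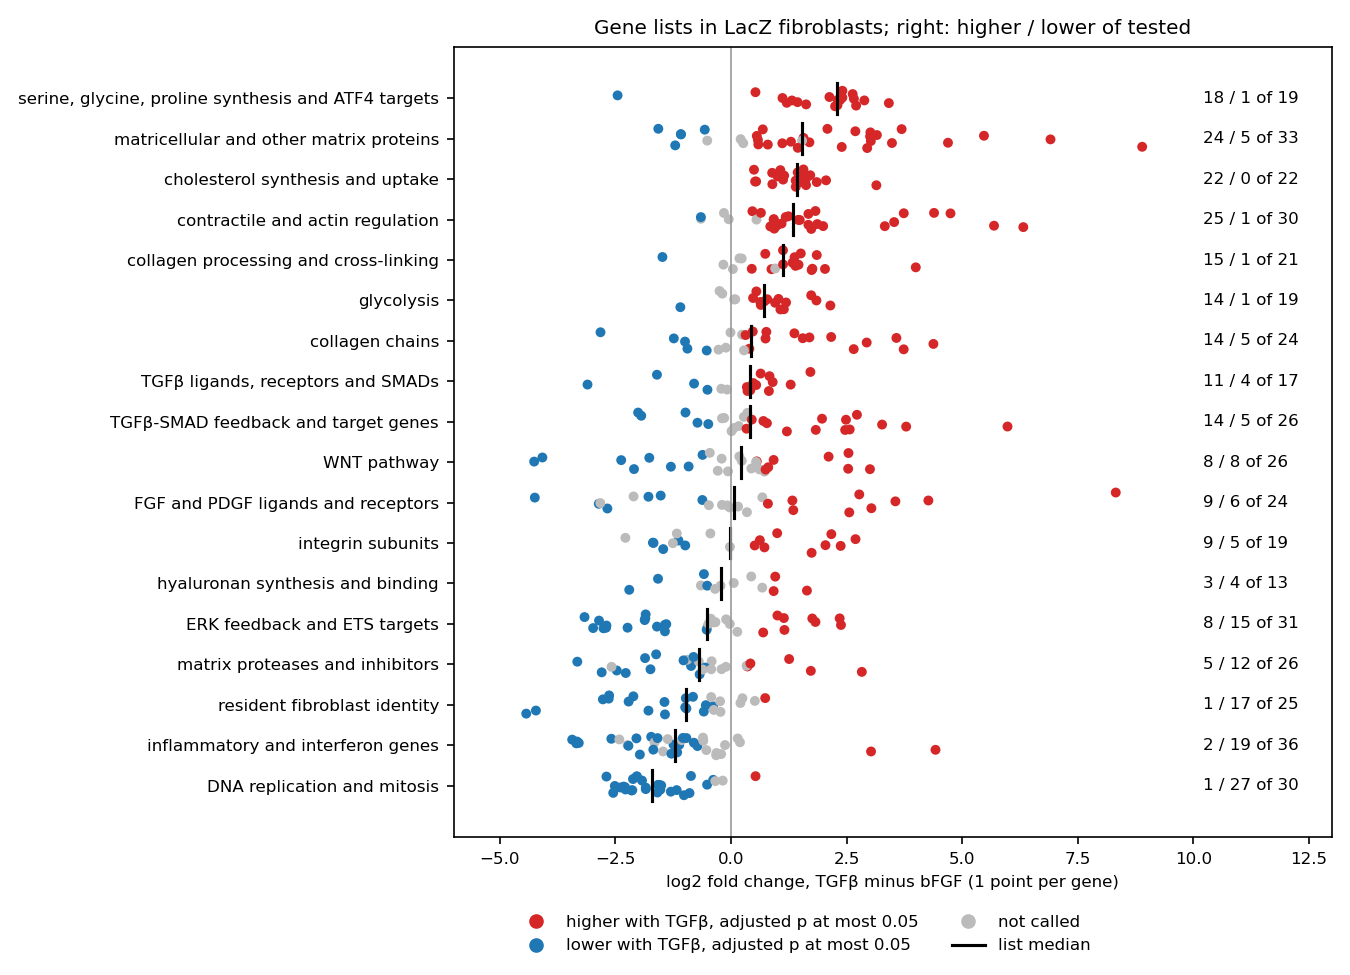
log2 fold change (TGFβ minus bFGF) of every tested member of 18 gene lists in LacZ fibroblasts, with 1 point per gene, black bars at list medians and, on the right, the number higher and lower with TGFβ of the number tested. Amino acid and ATF4 genes lie furthest to the TGFβ side (median 2.30) and replication and mitosis genes furthest to the bFGF side (median -1.72).

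Genes of the contractile apparatus were higher with TGFβ than with bFGF. Acta2, which encodes the α-smooth muscle actin that defines the myofibroblast, was at 3979.9, 7058, 2839 and 2108 CPM in TGFβ replicates 1 to 4 and at 255, 61.9, 145 and 117 CPM in bFGF replicates 1 to 4. The groups did not overlap, and the log2 fold change was 4.75 ± 0.49 (SE, edgeR adjusted p = 0.000244). Without replicate 2, which had the highest TGFβ value and the lowest bFGF value, it was 4.16. Starved cells without ligand held 166, 265, 165 and 113 CPM and overlapped the bFGF group (-0.35 ± 0.36 for bFGF, edgeR adjusted p = 0.55), while TGFβ was 4.43 ± 0.14 above them (edgeR adjusted p = 3.08e-06). In bulk RNA, here and below, a change in the number of cells of a type and a change in RNA per cell cannot be told apart.

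Of 30 contractile and actin-regulating genes tested, 25 were higher with TGFβ and 1 was lower, with a median log2 fold change of 1.35, or 20 and 3 with raw library sizes. Tagln, an actin-bundling protein of smooth muscle, was at 2005, 1953, 1117 and 925 CPM with TGFβ and 191, 59.5, 104 and 102 CPM with bFGF. Cnn1, calponin, which binds actin and restrains myosin, was at 41.9, 237, 38.4 and 23.5 CPM with TGFβ and 0.826, 1.69, 1.55 and 0.837 CPM with bFGF. Both genes were separated by more than 4-fold between the nearest libraries of the groups, and their log2 fold changes were 3.74 ± 0.30 and 5.69 ± 0.40 (SE, edgeR adjusted p = 8.25e-05 and 4.49e-05). Cnn1 was 4.98 without replicate 2. Myl9, the regulatory light chain of myosin, differed by 3.53 ± 0.34 (edgeR adjusted p = 0.000172), and it was lower with bFGF than without ligand, at -0.99 on the log2 scale (edgeR adjusted p = 0.0213). Cnn1 was lower with bFGF than without ligand as well, at -1.07 (edgeR adjusted p = 0.026).

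Acta1, the skeletal muscle actin, was at 3.48, 106, 10.6 and 6.55 CPM with TGFβ and 0.033, 0.528, 0.358 and 0.299 CPM with bFGF. Its log2 fold change of 6.32 was above that of Cnn1 with all replicates, but without replicate 2 it was 4.90, below the 4.98 of Cnn1. It remained called. Acta1 and Acta2 are near-identical in their coding sequence, so reads of these paralogs can be split by the aligner, and the low Acta1 level beside the high Acta2 level is uncertain for that reason. Mylk, the myosin light chain kinase, was the exception on the list. It was at 4.5, 28.2, 2.43 and 3.52 CPM with TGFβ and 10.4, 27.3, 5.15 and 5.38 CPM with bFGF, which overlapped, and its log2 fold change of -0.65 ± 0.21 (edgeR adjusted p = 0.0493) lost the call without the block (adjusted p = 0.825) and without replicate 1, 3 or 4 (adjusted p from 0.128 to 0.186). It was not called with RLE scaling (adjusted p = 0.056), with no filter (adjusted p = 0.0541) or with all 40 libraries (adjusted p = 0.127) either. As a share of all reads, the contractile list took 1.87, 2.43, 1.48 and 1.33% in the TGFβ libraries and 0.722, 0.552, 0.602 and 0.645% in the bFGF libraries. The difference of 1.15 percentage points had a two-sided exact permutation p of 0.0286 (adjusted over 4 shares, 0.0381), the smallest raw value that 4 against 4 libraries allow. This test, used for all shares of reads here, does not keep the pairs. With the pairs kept, the exact p was 0.125 for the contractile, collagen and matrix shares alike, which is the smallest that 4 pairs allow.

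Serum response factor (SRF) binds the CArG box, a short AT-rich element found in promoters of muscle and cytoskeletal genes. RefSeq promoter windows (GRCm38.p6, 300 bases, from 250 before to 50 after the start site) were matched for 25 of the 30 contractile genes, and 6 of the 25 (24.0%) held a CArG box on either strand, against 1.68% of the 14603 tested genes with a window. The 6 were Acta1, Myl9, Srf, Vcl, Cnn2 and Fhl2, and all were higher with TGFβ, with log2 fold changes from 0.85 (Vcl, vinculin) to 6.32 (Acta1). On the whole list 25 of 30 genes were higher with TGFβ, and a link between box and direction was not tested. The 4 other letter patterns were searched on both strands. GGAATG, the core bound by TEAD factors, was in 44.0% of the contractile windows and 15.3% of those of tested genes. CAGAC, a SMAD core, was in 56.0% and 53.4%, TGANTCA, the AP-1 pattern, in 12.0% and 7.55%, and CCGGAA, an ETS core, in 20.0% and 25.3%. Of 20 windows matched for the ERK feedback genes and ETS targets, whose changes are described below, 2 (10.0%) held a CArG box and 2 (10.0%) held CCGGAA. The box was in 1 of 24 windows of replication and mitosis genes and in none of the 20 of collagen chains or the 15 of cholesterol genes. The upstream 250 bases of 3 members are shown so that the element can be seen in its place, on the coding strand of the gene, with the CArG boxes in capitals. They are Myl9 (chr2:156775214-156775463, plus strand, box starting 161 bases before the start site), Acta1 (chr8:123894776-123895025, minus strand, 73 bases) and Srf itself (chr17:46556163-46556412, minus strand, boxes at 82 and 62 bases).
Myl9: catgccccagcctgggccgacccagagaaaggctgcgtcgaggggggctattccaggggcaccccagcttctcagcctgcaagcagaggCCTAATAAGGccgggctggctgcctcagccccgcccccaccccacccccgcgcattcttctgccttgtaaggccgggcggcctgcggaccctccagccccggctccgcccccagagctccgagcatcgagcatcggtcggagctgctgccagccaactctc
Acta1: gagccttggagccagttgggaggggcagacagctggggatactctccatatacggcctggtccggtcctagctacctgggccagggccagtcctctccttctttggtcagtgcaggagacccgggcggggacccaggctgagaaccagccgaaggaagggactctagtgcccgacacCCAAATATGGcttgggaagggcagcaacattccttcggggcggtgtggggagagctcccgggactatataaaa
Srf: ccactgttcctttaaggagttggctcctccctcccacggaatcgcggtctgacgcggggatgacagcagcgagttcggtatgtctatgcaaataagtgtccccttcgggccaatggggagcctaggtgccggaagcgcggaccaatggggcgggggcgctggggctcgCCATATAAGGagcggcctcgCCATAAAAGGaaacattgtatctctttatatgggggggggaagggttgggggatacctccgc

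Acta2, Tagln and Cnn1 are known to be bound by SRF, and no exact CArG box was found in the windows of Acta2 and Cnn1, while Tagln had no window in the table. The boxes found hold only A and T between CC and GG. Near matches with another base in between were not counted, so such variants in Acta2 and Cnn1 were not examined. The sequences describe these windows only. Srf was at 66.5, 78.4, 59.4 and 57.4 CPM with TGFβ and 44.8, 26.8, 33.4 and 32.9 CPM with bFGF, without overlap, a log2 fold change of 0.94 ± 0.15 (edgeR adjusted p = 0.00215). The motif genes Srf, Vcl, Cnn2 and Fhl2 were named because of these windows and not by the rule for named genes.

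**Figure D2:**
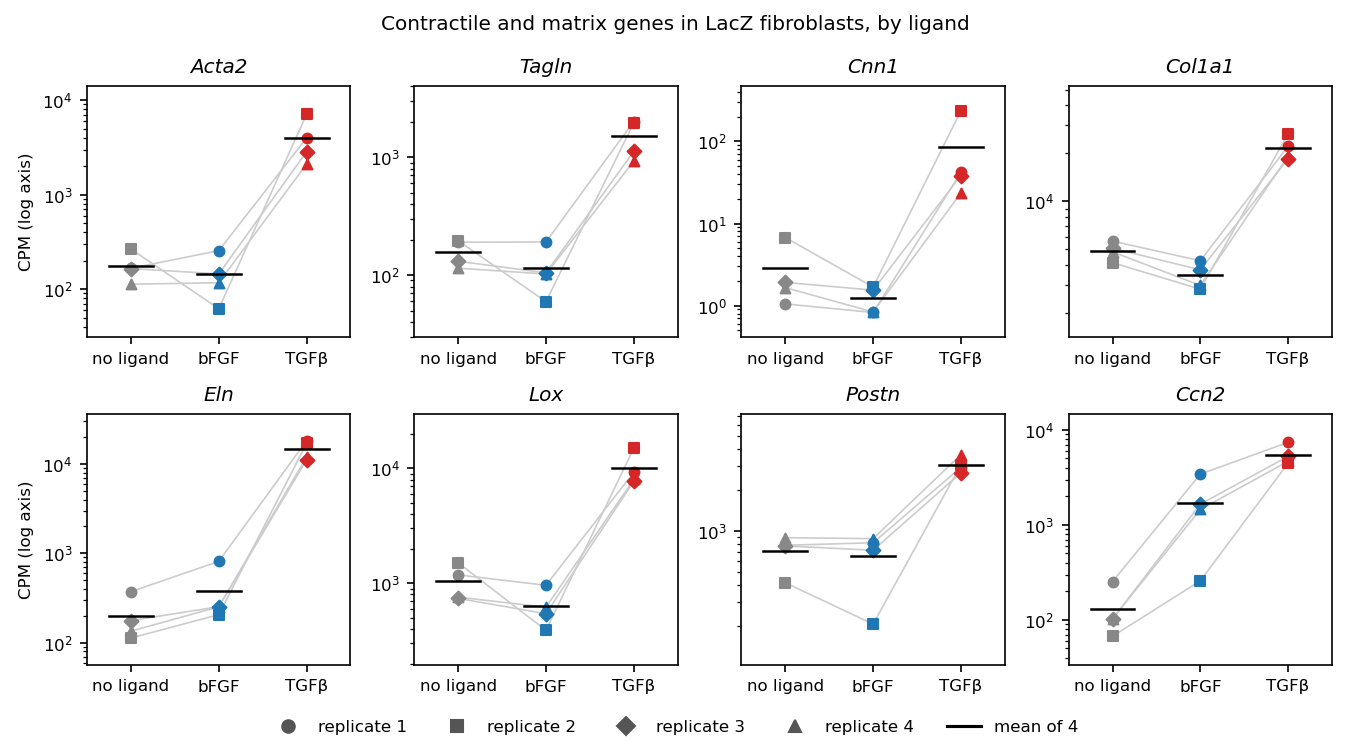
CPM on a log axis of 8 contractile and matrix genes in the 12 LacZ libraries, by ligand, with grey lines joining libraries of the same replicate number and black bars at the mean of 4. TGFβ libraries lie above all bFGF libraries for each gene. The bFGF libraries overlap those without ligand for every gene except Ccn2, which is raised by both ligands. Within same-numbered pairs, bFGF lies above no ligand for Eln and below it for Cnn1, Col1a1 and Lox in every pair.

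Matrix genes made up the second large block on the TGFβ side. Of 24 collagen chain genes, 14 were higher with TGFβ and 5 were lower, and the list median was 0.44, against 11 and 7 with raw library sizes. Without replicate 3 the lower count was 3. Col1a1, a chain of the main fibrillar collagen of scar, was at 22137, 26433, 18460.4 and 19129.6 CPM with TGFβ and 4231, 2806, 3712 and 2964 CPM with bFGF. Its partner chain Col1a2 was at 14277, 15732, 13007 and 13275 CPM with TGFβ and 5834, 4025, 4969 and 4479 CPM with bFGF. Their log2 fold changes were 2.66 ± 0.16 and 1.55 ± 0.13 (SE, edgeR adjusted p = 2.8e-05 and 8.2e-05), and in both the groups were apart. bFGF alone lowered both against no ligand, at -0.51 for Col1a1 and -0.35 for Col1a2 (edgeR adjusted p = 0.000357 and 0.00073).

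Col3a1, which forms the fine fibrils laid down early in repair, also lay below starved cells with bFGF. It was at 14480.1, 16531, 17362 and 17407 CPM with TGFβ, 12514, 8261, 9726 and 9078 CPM with bFGF and 25357, 13915, 22377 and 19409.8 CPM without ligand. Its log2 fold change between the ligands was 0.75 ± 0.14 (edgeR adjusted p = 0.00493). Against no ligand it was lower with bFGF, at -0.998 (edgeR adjusted p = 7.85e-05), and -0.25 ± 0.15 with TGFβ (edgeR adjusted p = 0.239). The call between the ligands was lost with the stricter filterByExpr filter (adjusted p = 0.0698) and without replicate 3 (adjusted p = 0.0639).

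The collagens with the largest changes were minor chains. Col8a2, a short-chain collagen of vessel and corneal matrix, was higher with TGFβ by 4.38 ± 0.63, Col12a1, which decorates fibril surfaces in tissue under tension, by 3.74 ± 0.16, and Col7a1, the anchoring fibril collagen of skin, by 3.58 ± 0.12 (SE, edgeR adjusted p = 0.00123, 6.56e-06 and 2.84e-06). Col8a2 was 5.04 without replicate 1 and 3.59 without replicate 2. On the bFGF side lay Col13a1, a membrane-spanning collagen, at -2.82 on 10 reads in all TGFβ libraries, Col14a1, another fibril-associated collagen, at -1.24 ± 0.27, and Col18a1, the basement membrane collagen that carries endostatin, at -0.99 ± 0.08. Col14a1 with TGFβ ranged from 67.6 to 179 CPM and with bFGF from 92 to 464 CPM, so its groups overlapped, and the call was lost without the block (adjusted p = 0.0536) and without replicate 3 (adjusted p = 0.0502). Collagen chains together took 6.5, 7.27, 6.44 and 6.54% of reads in the TGFβ libraries and 3.94, 2.89, 3.54 and 3.3% in the bFGF libraries, higher in 4 of 4 pairs by 3.27 percentage points (two-sided exact permutation p = 0.0286, adjusted 0.0381). Mitochondrially encoded transcripts, taken as a comparison, were at 0.706% with TGFβ and 0.8% with bFGF (two-sided exact permutation p = 0.371).

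Of 33 other matrix proteins, 24 were higher with TGFβ and 5 lower, with a list median of 1.54. Eln, the elastic fiber protein elastin, was at 18253, 17019, 11131 and 11988 CPM with TGFβ and 814, 206, 253 and 252 CPM with bFGF. The log2 fold change was 5.47 ± 0.30 (edgeR adjusted p = 1.88e-05), and Eln was among the most abundant transcripts of the TGFβ group. Fn1, fibronectin, was at 21472, 13968, 17619 and 21782 CPM with TGFβ and 9794, 5028, 7694 and 8298 CPM with bFGF, a smaller change of 1.30 ± 0.10 (edgeR adjusted p = 6.67e-05). Postn, periostin, a matricellular protein that marks activated fibroblasts, differed by 2.40 ± 0.33 (edgeR adjusted p = 0.00102). Acan, the cartilage proteoglycan aggrecan, was at 18.4, 137, 79 and 36.7 CPM with TGFβ and 0, 0.0503, 0.224 and 0.269 CPM with bFGF. Cilp, a cartilage matrix protein also made by cardiac fibroblasts, was at 39.1, 197, 67.1 and 131 CPM with TGFβ, 1.35, 1.46, 0.358 and 0.299 CPM with bFGF and 10.4, 5.29, 6.55 and 8.51 CPM without ligand, so bFGF lowered it (-3.12, edgeR adjusted p = 0.000463) while TGFβ raised it (3.61, edgeR adjusted p = 0.00068). Between the ligands Cilp was 6.91, and 7.56 without replicate 1. The whole list took 8.92, 8.63, 8.09 and 8.67% of reads with TGFβ and 5.29, 4.13, 4.81 and 4.7% with bFGF, higher in 4 of 4 pairs (two-sided exact permutation p = 0.0286, adjusted 0.0381).

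Ccn2, the connective tissue growth factor and a target of both SMAD and YAP signaling, was raised by both ligands. It was at 253, 67.1, 102 and 102 CPM without ligand, 3421, 257, 1650.2 and 1452 CPM with bFGF and 7389, 4465, 5259.5 and 4665 CPM with TGFβ. Replicate 2 had the lowest bFGF value by far, although no bFGF library reached the TGFβ range. The change between the ligands was 2.09 ± 0.44 (edgeR adjusted p = 0.00831), and the call was lost without the replicate block (adjusted p = 0.0556). The matrix proteins higher with bFGF included Spp1, osteopontin, at -1.57 ± 0.14, Lum, the collagen-binding proteoglycan lumican, at -1.21 ± 0.19, and Tgfbi, an integrin-binding protein named for its induction by TGFβ, at -1.08 ± 0.22 (SE, edgeR adjusted p = 0.000142, 0.00173 and 0.00708). Spp1 was higher with bFGF than without ligand (1.62), whereas Lum was lower than without ligand in both arms (-0.73 with bFGF and -1.93 with TGFβ).

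Enzymes that process and cross-link collagen were on the same side, with 15 of 21 higher with TGFβ and 1 lower (median 1.13), or 14 and 3 with raw library sizes. Lox, lysyl oxidase, which links collagen and elastin fibers, was at 9254, 14944, 7708 and 8014 CPM with TGFβ and 961, 389.7, 544 and 619 CPM with bFGF, a log2 fold change of 3.998 ± 0.31 (edgeR adjusted p = 7.15e-05). Loxl4, a related oxidase, and Tgm2, tissue transglutaminase, were higher by 2.03 ± 0.13 and 1.86 ± 0.23 (SE, edgeR adjusted p = 3e-05 and 0.000539). Tgm2 was at 198, 375, 174 and 163 CPM with TGFβ and 48.5, 198, 40.0 and 31.7 CPM with bFGF, where replicate 2 of the bFGF group overlapped the TGFβ range. Its call was lost without the block (adjusted p = 0.0807). The single gene lower with TGFβ was Adamts14, a procollagen peptidase, at -1.48 ± 0.27 (edgeR adjusted p = 0.00361).

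The TGFβ pathway itself was shifted in its ligands, receptors and targets. Of 17 ligand, receptor and SMAD genes, 11 were higher with TGFβ and 4 lower (median 0.42), a split that became 6 and 6 with raw library sizes. Tgfb1, the ligand gene itself, was at 241, 95.9, 192 and 195 CPM with TGFβ and 53.1, 41.1, 59.2 and 57.1 CPM with bFGF, higher by 1.72 ± 0.15 (edgeR adjusted p = 0.000107). Tgfb3 and Ltbp1, which encodes a protein that tethers latent TGFβ to the matrix, were higher by 1.29 ± 0.14 and 0.90 ± 0.12 (SE, edgeR adjusted p = 0.000353 and 0.00083). The 4 lower with TGFβ were the receptors Tgfbr2, Tgfbr3 and Acvrl1 and the receptor-activated Smad3. Tgfbr3, the co-receptor betaglycan, was at 12.7, 28.3, 17.3 and 21.9 CPM with TGFβ and 129.8, 472, 116 and 102 CPM with bFGF (-3.10 ± 0.28, edgeR adjusted p = 0.00014). Smad3 was at 81.5, 70.7, 89 and 96.7 CPM with TGFβ and 237, 250.1, 273 and 258 CPM with bFGF (-1.60 ± 0.09, edgeR adjusted p = 2.37e-05), and Tgfbr2, the ligand-binding receptor, differed by -0.80 ± 0.11 (edgeR adjusted p = 0.0011).

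Smad3 and Tgfbr2 lay on opposite sides of starved cells with the 2 ligands. Against no ligand, Smad3 was lower with TGFβ (-0.88, edgeR adjusted p = 0.00163) and higher with bFGF (0.72, edgeR adjusted p = 0.000913). Tgfbr2 was at -0.46 and 0.34 in the same comparisons (edgeR adjusted p = 0.00311 and 0.00641).

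Of 26 SMAD feedback and target genes, 14 were higher with TGFβ and 5 lower (median 0.40), or 11 and 7 with raw library sizes. The feedback inhibitors Smad7, which blocks the receptors, and Skil, which represses SMAD complexes, were higher by 1.97 ± 0.12 and 1.84 ± 0.08 (SE, edgeR adjusted p = 3.01e-05 and 9.68e-06). Skil was at 244, 232, 208 and 211 CPM with TGFβ and 61.9, 62.4, 60.7 and 65.3 CPM with bFGF, and neither gene overlapped between the groups. Nox4, a hydrogen peroxide-producing oxidase, was higher by 3.27 ± 0.16, and the transcription factors Scx (scleraxis, of tendon) and Meox1 by 3.79 ± 0.21 and 2.57 ± 0.25 (SE, edgeR adjusted p = 1.19e-05, 1.88e-05 and 0.000183). Meox1 was also higher with bFGF than without ligand, by 2.14 (edgeR adjusted p = 3.72e-05).

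Id1, Id2 and Fap were higher with bFGF than with TGFβ. Id1 and Id2 are inhibitors of differentiation that BMP signaling induces. Id1 was at 8.83, 17.6, 11.2 and 8.71 CPM with TGFβ and 46.8, 36.7, 52.1 and 46.2 CPM with bFGF, and Id2 at 8.39, 13.9, 9.75 and 9.36 CPM with TGFβ and 49.3, 31.3, 35.2 and 43.9 CPM with bFGF. Neither pair of groups overlapped (-2.01 ± 0.22 and -1.94 ± 0.21, SE, edgeR adjusted p = 0.000353 and 0.000287). Against no ligand, Id1 was higher with bFGF (0.60) and lower with TGFβ (-1.40), while Id2 was lower with both (-0.58 with bFGF and -2.52 with TGFβ, edgeR adjusted p = 0.00117, 0.00225, 0.00222 and 0.000141 in that order). Fap, the fibroblast activation protein, was lower with TGFβ than with bFGF, at -0.98 ± 0.14 (edgeR adjusted p = 0.00107, 0.061 without the block), and against no ligand it was -1.44 with TGFβ and -0.45 with bFGF (edgeR adjusted p = 1.8e-05 and 0.011).

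ERK feedback genes such as Dusp6 and Spry4 were higher with bFGF. Of 31 ERK feedback genes and ETS targets, 15 were lower with TGFβ than with bFGF and 8 were higher (median -0.51), or 22 and 7 with raw library sizes. Against no ligand, 25 of the 31 were higher with bFGF and 14 with TGFβ. Dusp6, the phosphatase that switches off ERK in the cytoplasm, was at 6.4, 11.9, 7.21 and 5.61 CPM with TGFβ and 43.2, 87.9, 73.6 and 74.6 CPM with bFGF. Spry4, a Sprouty inhibitor of receptor signaling, was at 14, 9.76, 13.9 and 11.3 CPM with TGFβ and 74.3, 102, 119 and 91.9 CPM with bFGF. Both were apart in all 8 libraries, by -3.17 ± 0.17 and -2.98 ± 0.16 (SE, edgeR adjusted p = 1.48e-05 and 1.68e-05), and neither passed the threshold for TGFβ against no ligand (edgeR adjusted p = 0.273 and 0.0679).

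The ETS factors Etv4 and Etv5, direct outputs of FGF signaling, were lower with TGFβ, at -2.24 ± 0.29 and -2.70 ± 0.20, and Spry2 and Dusp4 at -1.85 ± 0.14 and -1.43 ± 0.21 (SE, edgeR adjusted p = 0.000788, 5.88e-05, 5.43e-05 and 0.0015). Dusp4, a nuclear ERK phosphatase, and Etv4 were nonetheless higher with TGFβ than without ligand, by 1.27 and 1.53 (edgeR adjusted p = 0.0075 and 0.0438), whereas Spry2 was lower, at -0.67 (edgeR adjusted p = 0.00717). For Etv4 these groups overlapped, since replicate 2 went the other way, with 126 reads with TGFβ and 205 without ligand. Ccnd1, cyclin D1, which carries growth factor signals to the cell cycle, was at 136, 72.1, 288 and 219 CPM with TGFβ and 1329, 523, 1497 and 1614 CPM with bFGF, -2.85 ± 0.15 (edgeR adjusted p = 1.46e-05). The ERK targets higher with TGFβ included Egr2, an immediate early transcription factor, at 2.38 ± 0.24, Hbegf, an EGF receptor ligand, at 2.35 ± 0.21, and Lif, a cytokine of the IL-6 family, at 1.83 ± 0.30 (SE, edgeR adjusted p = 0.000203, 0.000137 and 0.00243). Hbegf and Lif were higher than without ligand in both arms, by 4.77 and 3.89 with TGFβ and by 2.42 and 2.08 with bFGF.

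**Figure D3:**
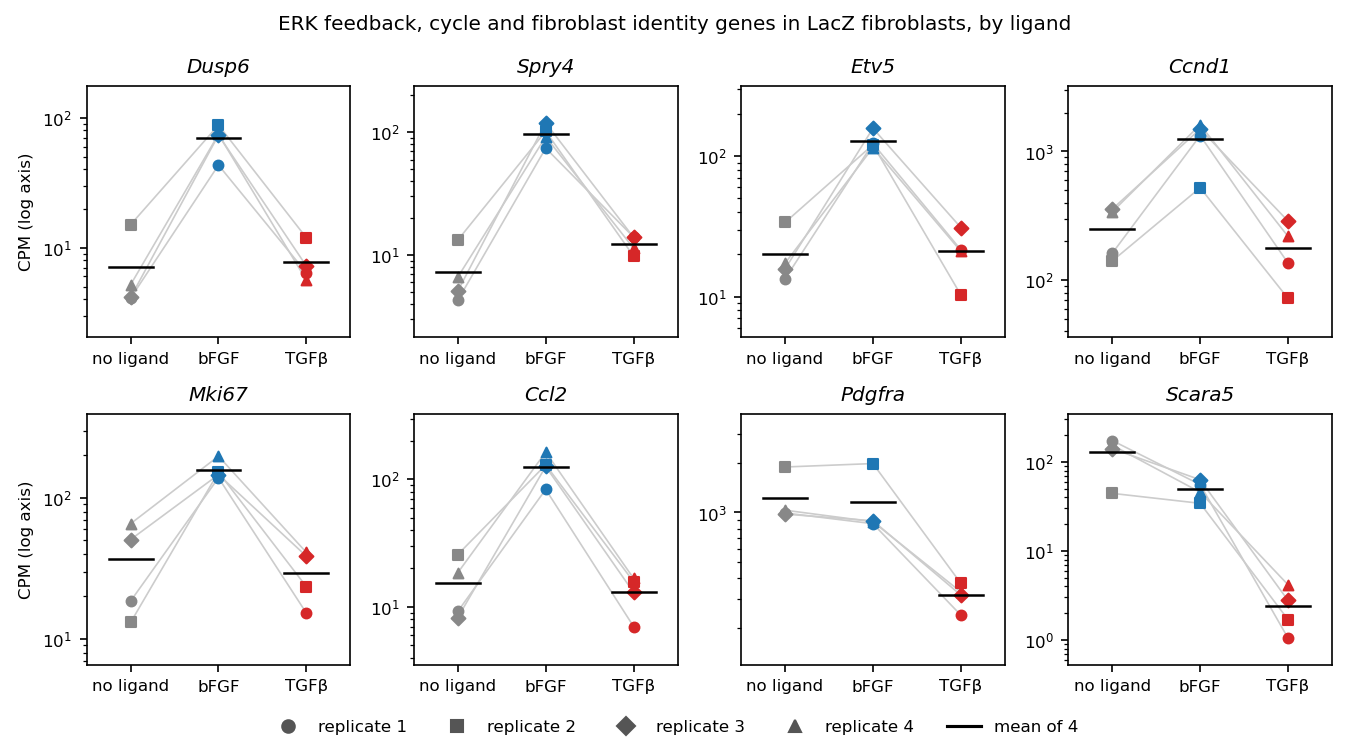
CPM on a log axis of 8 genes that were higher with bFGF than with TGFβ, in the 12 LacZ libraries by ligand, with grey lines joining libraries of the same replicate number and black bars at the mean of 4. Dusp6, Spry4, Etv5, Ccnd1, Mki67 and Ccl2 rise with bFGF above starved cells, while Pdgfra and Scara5 lie below starved cells with TGFβ.

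FGF and PDGF family members were split, with 9 of 24 higher with TGFβ and 6 lower (median 0.06), or 9 and 8 with raw library sizes (median -0.27). Fgf21, an endocrine FGF of the stress response, was at 18.9, 45.4, 19.3 and 13.6 CPM with TGFβ and 0, 0.126, 0.112 and 0.0299 CPM with bFGF, where all bFGF libraries together held 11 reads. Pdgfc, a PDGF receptor ligand, was at 145, 175, 119.7 and 109.7 CPM with TGFβ and 8.22, 21.3, 10.7 and 8.85 CPM with bFGF (3.56 ± 0.18, edgeR adjusted p = 1.26e-05). Fgf9 was higher with TGFβ too, at about 1 CPM in each TGFβ library and on 8 reads in all bFGF libraries. On the other side Fgf1, acidic FGF, was at 0.717, 0.564, 1.44 and 0.871 CPM with TGFβ and 21.8, 10.24, 21.5 and 14.6 CPM with bFGF (-4.24 ± 0.18, edgeR adjusted p = 6.85e-06), and Fgf10, a mesenchymal ligand for epithelia, at 0.138, 3.83, 0.641 and 0.492 CPM with TGFβ and 2.74, 27.7, 3.69 and 2.51 CPM with bFGF (-2.86 ± 0.22, edgeR adjusted p = 6.72e-05, 0.073 without the block). Fgf13, an intracellular FGF homolog, differed by -2.67 on 5 reads with TGFβ and 36 with bFGF. Fgfr1, the main FGF receptor of fibroblasts, was at 356, 319, 330.2 and 328 CPM with TGFβ and 544, 523, 514 and 466 CPM with bFGF, a small difference of -0.62 ± 0.08 with no overlap (edgeR adjusted p = 0.000715).

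Cell cycle genes were higher with bFGF. Of 30 replication and mitosis genes, 27 were lower with TGFβ than with bFGF and 1 was higher (median -1.72). All 30 were higher with bFGF than without ligand, while 8 were higher and 4 lower with TGFβ. Mki67, the antigen of dividing cells, was at 15.2, 23.4, 38.6 and 41 CPM with TGFβ, 139, 152, 146 and 198 CPM with bFGF and 18.5, 13.1, 50.6 and 65.6 CPM without ligand. The bFGF libraries lay above all others (-2.51 ± 0.20 between the ligands, edgeR adjusted p = 7.06e-05), and TGFβ against no ligand was -0.13 ± 0.23 (edgeR adjusted p = 0.698). Aurkb, a kinase of chromosome segregation, and Birc5, survivin, its partner in the chromosomal passenger complex, differed by -2.69 ± 0.22 and -2.55 ± 0.18 (SE, edgeR adjusted p = 7.74e-05 and 4.2e-05). The one member higher with TGFβ was Tyms, thymidylate synthase, at 0.53 ± 0.14 (edgeR adjusted p = 0.019), which lost the call with raw library sizes (0.18, adjusted p = 0.39), without the block (adjusted p = 0.0857) and without replicate 1, 3 or 4 (adjusted p from 0.0777 to 0.116).

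Inflammatory and interferon-stimulated genes lay mostly on the bFGF side, 19 of 36 against 2 on the TGFβ side (median -1.20). Without the block the 19 became 11. Ccl2, the monocyte chemoattractant, was at 7.01, 15.7, 13 and 16.7 CPM with TGFβ, 83.4, 129.9, 126 and 164 CPM with bFGF and 9.22, 25.7, 8.25 and 18.5 CPM without ligand, so that bFGF raised it (3.15 ± 0.21, edgeR adjusted p = 5.05e-05) and the ligands differed by -3.29 ± 0.11 (edgeR adjusted p = 2.46e-06). Ccl11, an eosinophil attractant, differed by -3.43 ± 0.69 (edgeR adjusted p = 0.00457), but its bFGF value of 13.8 CPM in replicate 2 stood far above the others, and without replicate 2 the change was -1.73 (adjusted p = 0.0716), against -4.39 without replicate 4. Ifit3, an interferon-induced antiviral gene, was at 2.79, 38.6, 28.9 and 73.8 CPM with TGFβ, 107, 236, 190.3 and 707 CPM with bFGF and 80.8, 208, 310.2 and 505 CPM without ligand. It fell with TGFβ by 3.23 on the log2 scale and was 0.11 ± 0.18 with bFGF (edgeR adjusted p = 0.000216 and 0.704). Cxcl10, an interferon-induced chemokine, was both lower with TGFβ (-1.49) and higher with bFGF (1.86) than without ligand (edgeR adjusted p = 0.00021 and 0.000603). All cells of the 3 groups carried adenovirus, and the part of a response to it in these levels was not tested.

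The 2 members higher with TGFβ were Ptgs2 and Il6. Ptgs2, the inducible cyclooxygenase COX2, was at 425, 956, 611 and 491 CPM with TGFβ and 17.1, 32.4, 32.8 and 31.2 CPM with bFGF (4.42 ± 0.16, edgeR adjusted p = 3.77e-06). Il6, interleukin-6, was at 96.4, 41.8, 106 and 93.5 CPM with TGFβ and 8.72, 10.9, 9.56 and 9.9 CPM with bFGF (3.03 ± 0.26, edgeR adjusted p = 0.000106). Both were above starved cells with either ligand, by 5.85 and 5.10 with TGFβ and by 1.41 and 2.04 with bFGF (all edgeR adjusted p at or below 0.000879).

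Genes of the resident, unactivated fibroblast were lower with TGFβ than with bFGF for 17 of 25, and higher for 1 (median -0.96). Without the replicate block 11 were lower, and with raw library sizes 21 were lower and 0 higher. Against no ligand, 19 were lower and 0 were higher with TGFβ, and 10 were lower and 7 higher with bFGF. Pdgfra, the PDGF receptor that marks cardiac fibroblasts, was at 239.8, 373, 317 and 331 CPM with TGFβ, 856, 1976, 891 and 879 CPM with bFGF and 993, 1884, 978 and 1033 CPM without ligand. It was -1.78 ± 0.17 between the ligands (edgeR adjusted p = 0.000158) and -0.11 ± 0.07 for bFGF against no ligand (edgeR adjusted p = 0.29). Scara5, a ferritin receptor of quiescent adventitial fibroblasts, was at 1.05, 1.69, 2.78 and 4.17 CPM with TGFβ and 55.6, 34.3, 63 and 45.7 CPM with bFGF, and Abca8a, a lipid transporter, at 20.6, 8.44, 24.1 and 25.8 CPM with TGFβ and 471, 159, 425 and 407 CPM with bFGF. Neither gene overlapped (-4.43 ± 0.30 and -4.22 ± 0.12, SE, edgeR adjusted p = 3.97e-05 and 1.34e-06). Scara5 was lower than without ligand in both arms, while Abca8a was higher with bFGF (1.29, edgeR adjusted p = 5.15e-05).

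Tcf21, a transcription factor of resident cardiac fibroblasts, was at 41.1, 22.1, 38.9 and 35.6 CPM with TGFβ and 103, 27.8, 85.5 and 77.7 CPM with bFGF. The groups overlapped because replicate 2 was low in both, and within pairs Tcf21 was lower with TGFβ in 4 of 4 (-0.99 ± 0.16, edgeR adjusted p = 0.00192). Meox2, a homeobox factor, differed by -2.77 ± 0.25 (edgeR adjusted p = 0.000134). The member on the TGFβ side was Pi16, a marker of adventitial progenitor-like fibroblasts, at 0.74 ± 0.14 (edgeR adjusted p = 0.00406), and with raw library sizes it was 0.39 and not called (adjusted p = 0.0669). Pi16 was lower with bFGF than without ligand, at -0.99 and -0.25 ± 0.11 with TGFβ (edgeR adjusted p = 9.77e-05 and 0.0987).

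Of 26 matrix proteases and their inhibitors, 5 were higher with TGFβ and 12 lower (median -0.69), or 3 and 16 with raw library sizes and 2 and 11 without replicate 4. On the TGFβ side were the inhibitors Timp3 and Timp1, at 2.83 ± 0.29 and 1.26 ± 0.09, and the membrane protease Adam12, at 1.73 ± 0.44 (SE, edgeR adjusted p = 0.000232, 4.57e-05 and 0.0191). Adam12 was 1.14 without replicate 2 and lost the call without replicate 4 (adjusted p = 0.074). Timp3 was at 12598, 4274, 8941 and 8639 CPM with TGFβ and 2917, 261, 1327 and 1550.2 CPM with bFGF, with replicate 2 the lowest of each group and no overlap. On the bFGF side were Mmp3, stromelysin, at 337, 497, 782 and 758 CPM with TGFβ and 1491, 1897, 1921 and 1622 CPM with bFGF (-1.62 ± 0.18, edgeR adjusted p = 0.000359), and Adamts9, a versican- and aggrecan-cleaving protease, at -2.80 ± 0.21 (edgeR adjusted p = 5.53e-05). Mmp27 and Mmp1a, at -2.47 and -3.32, were under 1 CPM in the TGFβ group, Mmp1a on 5 reads (-4.02 without replicate 4). Mmp13, collagenase-3, at 0.635, 2.59, 2.59 and 1.44 CPM with TGFβ and 0.892, 4, 2.87 and 1.94 CPM with bFGF, did not pass the threshold (-0.42 ± 0.17, edgeR adjusted p = 0.104). With raw library sizes the Mmp13 difference was larger and passed it.

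Integrins, the receptors that tie cells to matrix, were split, with 9 of 19 higher with TGFβ and 5 lower, a split that turned to 7 and 8 with raw library sizes. Itga11, a collagen receptor subunit, Itga9, which binds tenascin and osteopontin, and Itga5, the fibronectin receptor subunit, were higher with TGFβ by 2.69 ± 0.36, 2.37 ± 0.11 and 2.17 ± 0.17 (SE, edgeR adjusted p = 0.00082, 1.04e-05 and 7.56e-05). Itga5 was at 1019.8, 1347, 923 and 905 CPM with TGFβ and 194, 200.5, 260.4 and 275 CPM with bFGF. Another collagen receptor subunit, Itga2, and the laminin receptor subunits Itgb4 and Itga6 were at lower levels with TGFβ and decreased by 1.69, 1.67 and 1.46 (edgeR adjusted p = 0.00117, 0.000871 and 0.000116).

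Hyaluronan genes were 3 higher and 4 lower of 13, or 3 and 7 with raw library sizes. Without replicate 3, and likewise without replicate 4, they were 3 and 2. Has2, the main hyaluronan synthase of fibroblasts, was at 5.43, 8.54, 12.1 and 11.1 CPM without ligand, 24.2, 28.3, 40.6 and 35.9 CPM with bFGF and 49.6, 57, 70.9 and 64.7 CPM with TGFβ, so both ligands raised it and TGFβ exceeded bFGF by 0.92 ± 0.08 (edgeR adjusted p = 0.000137). Cemip, which depolymerizes hyaluronan, was at 787, 653, 264 and 177 CPM with TGFβ, 313, 153, 89 and 59 CPM with bFGF and 984, 973, 456 and 345 CPM without ligand. bFGF lowered it, at -2.29 (edgeR adjusted p = 4.55e-05), and the 1.64 ± 0.12 between the ligands (edgeR adjusted p = 6.1e-05) was not called without the block (adjusted p = 0.0693). Tnfaip6, which cross-links hyaluronan in inflamed matrix, was higher with TGFβ by 0.96 ± 0.19 (edgeR adjusted p = 0.00576), and Hmmr, a hyaluronan receptor and mitotic spindle protein, was lower, at -2.20 ± 0.20 (edgeR adjusted p = 0.000126). Cemip2 and Has3 were at -0.58 and -1.58 (edgeR adjusted p = 0.00343 and 0.0443), Has3 at under 1 CPM and not called without replicate 2, 3 or 4 (adjusted p from 0.0889 to 0.187).

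Genes of amino acid and sterol synthesis were higher with TGFβ. Of 19 genes of serine, glycine and proline synthesis and targets of ATF4, the transcription factor of the amino acid response, 18 were higher with TGFβ and 1 was lower, with a median of 2.30 against -0.07 over all genes. Their summed level was 4605, 5497, 4129 and 4089 CPM with TGFβ and 1526, 908, 1222 and 1674 CPM with bFGF. Slc7a5, the leucine transporter LAT1, was at 592, 671, 473 and 463 CPM with TGFβ and 104, 44.7, 59.9 and 103 CPM with bFGF (2.89 ± 0.26, edgeR adjusted p = 0.000128). Chac1, a glutathione-degrading enzyme, and Trib3, a pseudokinase, both ATF4 targets, were higher by 3.42 ± 0.37 and 2.71 ± 0.31 (SE, edgeR adjusted p = 0.000313 and 0.000396). The exception was Shmt1, the cytosolic serine hydroxymethyltransferase, at 0.745, 0.494, 1.2 and 1.36 CPM with TGFβ and 4.26, 3.85, 5.42 and 6.88 CPM with bFGF (-2.45 ± 0.18, edgeR adjusted p = 5.05e-05). Against no ligand, 11 of 19 were higher with bFGF (median 0.47) and 17 with TGFβ (median 2.65).

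All 22 of 22 cholesterol synthesis and uptake genes were higher with TGFβ than with bFGF, with a median of 1.42. Each had all 4 TGFβ libraries above all 4 bFGF libraries. Their summed level was 4497, 4871, 4098 and 3969 CPM with TGFβ, 1933, 1683, 1312 and 1678 CPM with bFGF and 1143, 1340.0, 1145 and 1266 CPM without ligand. Cyp51, a sterol demethylase, was at 499.9, 595, 520.3 and 459 CPM with TGFβ and 145, 124, 93.9 and 139 CPM with bFGF (2.06 ± 0.14, edgeR adjusted p = 3.84e-05). Against no ligand, 22 were higher with TGFβ and 13 with bFGF.

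Most glycolysis genes were higher with TGFβ than with bFGF. Against no ligand, 16 of 19 were higher with TGFβ and 13 with bFGF, and 14 were higher with TGFβ than with bFGF (median 0.73), 1 lower. With raw library sizes the split between the ligands was 10 higher and 4 lower. Hk2, the inducible hexokinase, was at 6.99, 17.3, 8.57 and 8.63 CPM without ligand, 26.2, 43.1, 39.6 and 40.4 CPM with bFGF and 139, 145, 114 and 134 CPM with TGFβ, and the 3 groups did not overlap (1.85 ± 0.14 between the ligands, edgeR adjusted p = 7.02e-05). Slc16a3, the lactate exporter MCT4, was higher by 2.15 ± 0.18 (edgeR adjusted p = 8.64e-05). Aldoc, an aldolase, was higher by 1.74 ± 0.30 (edgeR adjusted p = 0.0031, 0.188 without the block), with its TGFβ value of 32.7 CPM in replicate 2 far above the others. Eno2, the neuronal enolase, was lower, at 11.6, 17.6, 9.24 and 12.2 CPM with TGFβ and 24.5, 39.7, 20.8 and 23.4 CPM with bFGF (-1.09 ± 0.09, edgeR adjusted p = 9.92e-05).

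**Figure D4:**
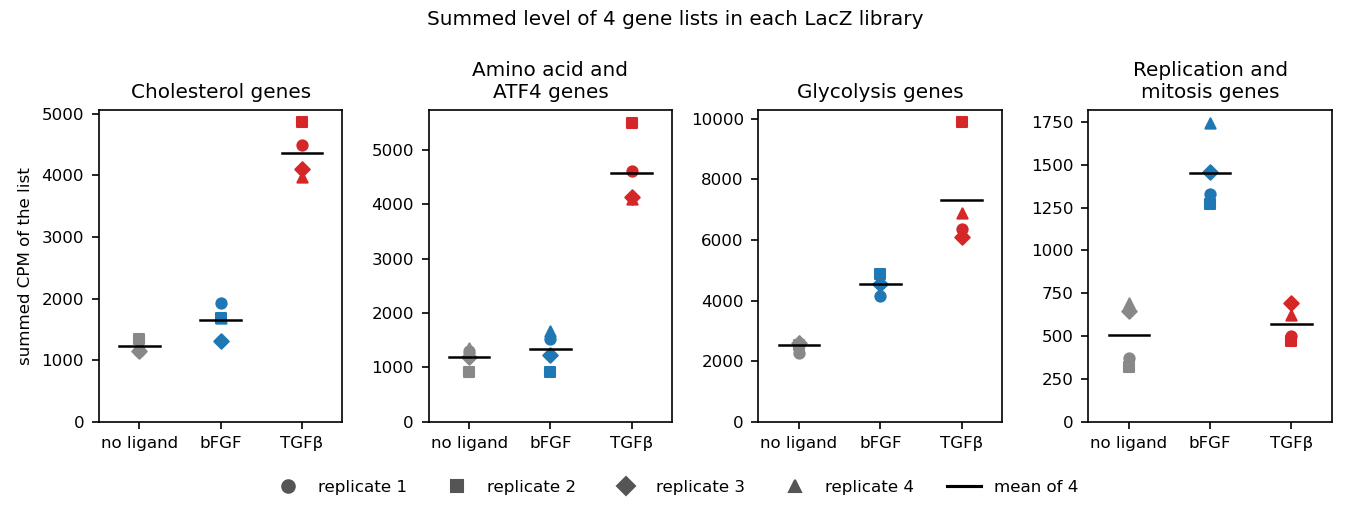
Summed CPM of the members of 4 gene lists in each of the 12 LacZ libraries (linear axes from 0), by ligand, with marker shapes for replicate numbers and black bars at the mean of 4. Cholesterol and amino acid genes are highest with TGFβ, glycolysis genes step up from no ligand to bFGF to TGFβ, and replication and mitosis genes are highest with bFGF.

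The WNT list was balanced, 8 higher and 8 lower of 26, or 5 and 10 with raw library sizes and 4 and 5 without replicate 4. The ligands Wnt11, Wnt10b and Wnt9a were higher with TGFβ by 3.01 ± 0.41, 2.54 ± 0.31 and 2.54 ± 0.21 (SE, edgeR adjusted p = 0.00092, 0.000533 and 8.82e-05). Wnt9a was at 32.1, 49.3, 38.2 and 34 CPM with TGFβ and 9.05, 5.16, 7.32 and 5.2 CPM with bFGF, and Wnt11 at 24.3, 4.52, 12.2 and 13.3 CPM with TGFβ and 2.11, 1.99, 1.19 and 0.748 CPM with bFGF, both below starved cells with bFGF (-0.91 and -2.18). Wnt11 was 3.63 without replicate 2. The secreted WNT antagonists Dkk1, Dkk2 and Notum were higher with bFGF. Dkk2 was at 12, 12.4, 17.2 and 10.9 CPM with TGFβ and 59.8, 73.5, 68.7 and 67.5 CPM with bFGF (-2.37 ± 0.13, edgeR adjusted p = 1.54e-05), and Notum, which inactivates WNT by removing its lipid, differed by -4.26 ± 0.44 (edgeR adjusted p = 7.5e-05, -5.68 without replicate 2). Dkk1 was higher with bFGF on 91 reads against 4 with TGFβ, and it lost the call without replicate 3 or 4 (adjusted p = 0.0784 and 0.0551). Its -4.08 was -5.70 without replicate 1 and -3.10 without replicate 4.

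The 5 genes with the largest rise toward TGFβ, counting only genes that averaged 1 CPM or more and whose groups did not overlap, were Acan, Fgf21, C1qtnf3, Cilp and the noncoding RNA Gm32255 (chr10:67496359-67497707, GRCm38). C1qtnf3, a C1q- and TNF-related secreted protein, was at 21.2, 2108, 35.1 and 39.4 CPM with TGFβ and 0.264, 3.2, 0.56 and 0.807 CPM with bFGF, and its log2 fold change of 7.71 was 5.89 without replicate 2. Acan and Fgf21 were at 8.89 ± 0.37 and 8.32 ± 0.26 (SE, edgeR adjusted p = 1.29e-06 and 1.8e-07), and Acan was 8.11 without replicate 2 and 9.56 without replicate 4. Gm32255 was at 20.0, 6.14, 7.91 and 7.61 CPM with TGFβ and at most 0.179 CPM with bFGF (7.43 without replicate 3, 6.65 with all).

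Toward bFGF the 5 were Cyp2f2, Adh1, Cacna1i, Galnt15 and Gm49774. Cyp2f2, a cytochrome P450, had no read in any TGFβ library and 626 reads in the bFGF libraries, so it was at least 257-fold higher with bFGF (floor of 3 counts over the group). Replicate 2 held 592 of those reads, at 0.198, 14.9, 0.336 and 0.389 CPM in the 4 replicates, and without it the bound was 13.1-fold on 34 reads. The fitted log2 fold change of -10.41 was -6.39 without replicate 2 (adjusted p = 0.0262), and its call was lost without the block (adjusted p = 0.0774). Adh1, an alcohol and retinol dehydrogenase, was at 1.25, 77.4, 2.44 and 1.88 CPM with bFGF and at most 0.165 CPM with TGFβ, and the -8.31 was -5.78 without replicate 2. Cacna1i, a T-type calcium channel, had 3 reads with TGFβ and 702 with bFGF, a ratio of 289 after scaling (95% exact interval 98.3 to 1403, counting error only). It was at 3.14, 1.33, 5.67 and 9 CPM with bFGF and 0, 0.132, 0.0355 and 0.261 CPM without ligand, which did not overlap, and its log2 fold change of -7.47 was -8.11 without replicate 4. Galnt15, a glycosyltransferase, was at 16.5, 2.44, 11.3 and 8.67 CPM with bFGF, 23.4, 5.51, 12 and 10.3 CPM without ligand and 0, 0, 0.16 and 0.114 CPM with TGFβ, with a log2 fold change of -7.14 (-6.36 without replicate 1 and -8.07 without replicate 3). Gm49774 (chr17:27545707-27556518, GRCm38) is annotated antisense to Hmga1, a chromatin gene whose mean was 22.8 CPM with TGFβ and 331.6 CPM with bFGF, and since the strand setting of the counts was not stated, its reads cannot be told apart from those of Hmga1. Gm49774 was -6.55, and -8.03 without replicate 2. Hmga1 was named after its values were seen.

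Markers of endothelial cells, leukocytes, cardiomyocytes, mesothelium and Schwann cells were low, and some moved with the contrast. Of 7 endothelial markers 3 were lower with TGFβ (Cdh5, Tek and Vwf, of which Tek lost the call without replicate 1 and Vwf without replicate 1, 2 or 3, adjusted p 0.0595, 0.131, 0.125 and 0.0535), with a summed level of 7.17 to 9.4 CPM against 12.9 to 17.1 CPM with bFGF. Of 7 leukocyte and macrophage markers 4 were lower (C1qa, Cd14, Cd68 and Lyz2) and 1 higher (Csf1r, not called with raw library sizes, adjusted p = 0.145), at 27.6 to 96 and 49.5 to 114 CPM, and the pan-leukocyte Ptprc was with TGFβ at most 1.67 CPM. The 6 cardiomyocyte, 5 mesothelial and 4 Schwann cell markers tested had 1, 0 and 1 members lower (Tnni3 and Cdh19) and summed to 3.97 to 15, 3.15 to 4.61 and 3.9 to 9.81 CPM with TGFβ and to 4.53 to 31.4, 2.64 to 5.29 and 8.18 to 14.7 CPM with bFGF. The cardiomyocyte genes Myh6 and Nppa did not reach 10 counts over the 40 libraries, and Sox10 of Schwann cells was at most 0.0598 CPM. Of 10 fibroblast markers 4 were higher and 5 lower with TGFβ, and they summed to 57153 to 66622 CPM with TGFβ and 22846 to 31191 CPM with bFGF. Without the replicate block, 1 endothelial marker, 2 leukocyte markers and 3 fibroblast markers were lower. Their part in the inflammatory and identity lists was not tested.

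Pericytes and smooth muscle cells share contractile genes with myofibroblasts. Of 7 markers of these cells, 3 were higher with TGFβ and 2 lower, and they summed to 790.0 to 1337 CPM with TGFβ and 213 to 725 CPM with bFGF. Cspg4 (NG2) was at 301, 258, 229 and 229.6 CPM with TGFβ and 53.5, 14.8, 23.6 and 32.1 CPM with bFGF (3.17 ± 0.25, edgeR adjusted p = 6.67e-05), and Rgs5 was higher by 1.21 ± 0.25 (edgeR adjusted p = 0.00656, 0.145 without the block). Rgs5 was not low, at 19650, 16423, 34978 and 21579 reads with TGFβ. The fibroblast marker Pdgfra had fewer reads than Rgs5 in each TGFβ library and more in each bFGF library. Myh11, the smooth muscle myosin heavy chain and the most specific of the list, was at 0.993, 16.1, 1.95 and 1.14 CPM with TGFβ and 0.198, 0.352, 0.493 and 0.478 CPM with bFGF, against 1.96, 1.67, 2.47 and 2.82 CPM without ligand. Its 3.33 was 1.83 without replicate 2. The pericyte channel genes Kcnj8 and Abcc9 were lower with TGFβ, at -1.89 ± 0.18 and -2.46 ± 0.27 (SE, edgeR adjusted p = 0.000164 and 0.000336). The part of such cells in the contractile result was not tested.

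The same contrast was then read in fibroblasts with iCre adenovirus. Map3k7 over the whole gene was at 229, 222, 222 and 233 CPM in the LacZ libraries with TGFβ and 154, 126, 150.4 and 153 CPM in the iCre libraries with TGFβ. With bFGF, the LacZ libraries held 203, 166, 213 and 212 CPM, and the iCre libraries held 159, 129, 154 and 160.2 CPM. It was named to check the labels. Cre removes a single exon, and reads from the rest of the gene are still counted, so these totals check the deletion only in part. Between the ligands, 4920 genes were higher with TGFβ (19.5%) and 5175 lower (20.5%) in iCre cells, or 2412 and 8601 with raw library sizes. Of the 3778 genes higher in LacZ cells, 3019 were called higher in iCre cells, 79.9% of the LacZ list and 61.4% of the iCre list. Of the 4154 lower in LacZ cells, 3159 were called lower in iCre cells, 76.0% and 61.0% of the lists. A call in opposite directions was made for 150 genes.

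The interaction, the difference of the ligand contrast between iCre and LacZ over 16 libraries, called 859 genes higher (3.41%) and 1373 lower (5.45%). The iCre libraries with TGFβ differed from the rest in base composition, since the slope of log2 CPM per 10 percentage points of GC content was 0.28 to 0.29 in them and -0.23 to -0.09 in the 12 other libraries of this test. Their mitochondrially encoded transcripts took 0.322 to 0.456% of reads, against 0.778 to 1.17% in the iCre libraries with bFGF and 0.582 to 0.945% in the 8 LacZ libraries, and the part of this in the iCre values was not tested. Across 12298 genes the interaction correlated with GC content at Spearman's rho 0.516 (genes are not replicates, and libraries are shared), against 0.013 for the contrast in LacZ cells. With a GC correction 818 genes were called, 410 higher and 408 lower. Without the block 919 were called, 229 higher and 690 lower. Without replicate 3 the total was 611, 84 higher and 527 lower, and without replicate 4 it was 946, 202 higher and 744 lower. With DESeq2, 1575 were higher and 1771 lower. Of the core genes, Acta2 was at 5.80 in iCre cells and 4.75 in LacZ cells, an interaction of 1.07 ± 0.57 (edgeR adjusted p = 0.326), and Col1a1 gave 0.27 ± 0.17 (edgeR adjusted p = 0.417).

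The 8 core genes past the threshold in the interaction were Tagln (1.35 ± 0.36), Eln (1.45 ± 0.39), Etv4 (1.53 ± 0.41), Dusp4 (1.06 ± 0.27), Ccl2 (1.00 ± 0.24), Id1 (0.85 ± 0.24), Skil (-0.66 ± 0.15) and Nox4 (-0.79 ± 0.21). Tagln and Eln had a wider gap between the ligands without TAK1, while Etv4, Dusp4, Ccl2, Id1, Skil and Nox4 had a narrower one. Dusp4 was at 80.9, 32.7, 104 and 105 CPM with TGFβ and 118, 36.8, 142 and 121 CPM with bFGF in iCre cells, where the groups overlapped, although the TGFβ value was the lower in each pair. With the GC correction, 7 of the 8 lost the call, Nox4 with a value of -0.09 (adjusted p = 0.923), and Ccl2 kept it (adjusted p = 0.0165). Without the block, 7 of the 8 lost it, all but Skil (adjusted p = 0.0351). Without replicate 3 the call remained for Ccl2 alone among the 8 (adjusted p = 0.0168), and without replicate 4 for Skil alone (adjusted p = 0.0457). With the spread estimated over all 40 libraries, Ccl2, Etv4, Id1 and Nox4 lost it. Without replicate 1 it was lost for Ccl2, Id1, Nox4, Skil and Tagln (adjusted p from 0.0713 to 0.193).

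The 3 largest interactions in each direction, among genes of at least 1 CPM, are given next. Zfp808, a zinc finger gene, the noncoding RNA Snhg14 and the pseudogene Gm36298 were at -3.26 ± 0.38, -3.17 ± 0.39 and -2.94 ± 0.34 (SE, edgeR adjusted p = 9.59e-05, 0.000146 and 9.73e-05). Snhg14 was at 0.463, 0.407, 0.15 and 0.194 CPM in iCre cells with TGFβ and between 1.80 and 3.94 CPM in the other 12 libraries of the test. In the other direction were Smoc2, a secreted calcium-binding matrix protein, at 2.63 ± 0.58, Gm11361 at 2.45 ± 0.54 and Olfm2, an olfactomedin, at 2.17 ± 0.46 (SE, edgeR adjusted p = 0.0105, 0.0101 and 0.00871). All 6 kept the call with the GC correction (adjusted p from 0.00405 for Zfp808 to 0.0325 for Olfm2), at -2.43 for Zfp808, -1.82 for Snhg14 and -2.07 for Gm36298. Zfp808, Snhg14 and Gm36298 also kept it without any one replicate, whereas Smoc2, Gm11361 and Olfm2 lost it without replicate 3 (adjusted p = 0.119, 0.0895 and 0.118) and without replicate 4 (adjusted p = 0.111, 0.0579 and 0.111). Without the replicate block Smoc2 and Olfm2 lost it (adjusted p = 0.0588 and 0.0784). Smoc2 was at 36.9, 40.2, 36.6 and 41.4 CPM with TGFβ and 69.1, 13.7, 28.4 and 39.9 CPM with bFGF in LacZ cells, and at 44.6, 68.2, 65.4 and 67.6 CPM with TGFβ and 24.7, 3.85, 5.31 and 7.7 CPM with bFGF in iCre cells, and the groups overlapped in LacZ cells and not in iCre cells. Among the lists, 11 of 22 cholesterol genes and 8 of 30 replication and mitosis genes were called with a positive interaction and 0 with a negative one. With the GC correction 10 and 8 were called positive, but only 5 and 1 without the replicate block. Without replicate 4 the positive calls were 7 and 3, and without replicate 3 they were 10 and 5. With the spread estimated over all 40 libraries, 2 cholesterol genes were called positive.

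**Figure D5:**
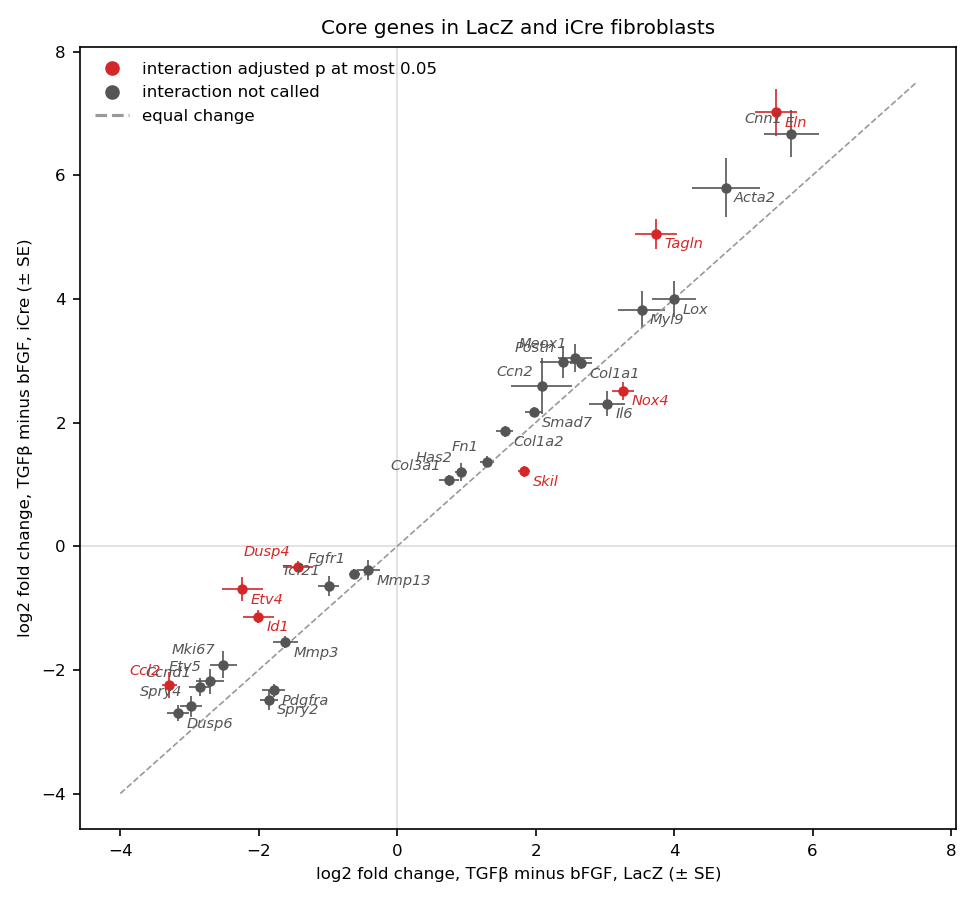
log2 fold change (TGFβ minus bFGF) of the core genes in LacZ (x axis) and iCre (y axis) fibroblasts, each with its SE, where the dashed line marks an equal change and red points passed the interaction test. All genes have the same sign in both, and the 8 red genes lie off the line by 0.66 to 1.53.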

How the data were processed

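RNA of 40 libraries was sequenced, and the authors deposited whole-number counts per Ensembl gene from HTSeq (HTSeq 0.10.0 and FastQC 0.10.1 per the submitters' processing notes), with no normalization. The library kit is named differently in the labels and in the study's methods and the strand setting is not given in the sources used here, so reads of overlapping or antisense genes may be shared. Gene names and GC content came from GENCODE M21, which held 52133 of 55414 rows and 99.6% of counts. Every count column was matched to a sample by its name in the labels.

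Genes with at least 10 counts over the 40 libraries (25210) were tested with edgeR 4.0.16 (R 4.3.3), using TMM scaling, the quasi-likelihood fit, the replicate number as a block and only the libraries compared, at a Benjamini-Hochberg adjusted p of at most 0.05. Replicate numbers come from the titles; the study calls its replicates biological, and the labels do not tie them to separate animals, so p-values measure the spread between these samples. Same-numbered libraries deviated together in every pair (mean r 0.538 for TGFβ and bFGF, -0.153 for other numbers). Deviations are taken from the group mean, so the negative value follows largely from the positive one. CPM values are scaled over the 40 libraries. Shares of reads were compared by two-sided exact permutation tests. The fit was edgeR's newer form (legacy = FALSE) and not the default of this version, because on simulated data the default made more false calls, although it recovered more of the small changes in both comparisons simulated. With the form used, the share of false calls in the simulated TGFβ and bFGF comparison was still above the threshold. Alternatives were DESeq2 1.42.0, RLE, other filters, a GC correction, no block, all 40 libraries, each replicate left out, raw library sizes and the legacy fit.

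The members and gene lists (25) were chosen with earlier results of these data known. Named genes were 33 core genes, the 5 largest changes in each direction, the 3 largest called members of each list in each direction, and the largest interactions. Not all members of a list had a single gene identifier, and Aldoa and Ddit3, with more than 1, were left out. Some genes that met the rule are not reported here.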

Additional observations from a re-analysis of the deposited data

Results flagged for a closer look

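In 34 of 276 groups of 4 libraries (138 named genes, TGFβ and bFGF), the highest or lowest library stood apart from the other 3 by Dixon's criterion, where chance alone gives about 1 in 20. Replicate 2 accounted for 26 of the 34. With TGFβ it stood apart for Acta1 (106 CPM), Aldoc (32.7 CPM), C1qtnf3 (2108 CPM), Cnn1 (237 CPM), Col12a1 (3309.5 CPM), Col8a2 (94.1 CPM), Fgf10 (3.83 CPM), Ltbp1 (1241 CPM), Myh11 (16.1 CPM), Mylk (28.2 CPM), Tgfb3 (440.1 CPM), Tgm2 (375 CPM) and Trib3 (166 CPM). With bFGF it stood apart for Adh1 (77.4 CPM), Ccl11 (13.8 CPM), Cd14 (10.8 CPM), Cdh5 (7.17 CPM), Cyp2f2 (14.9 CPM), Fap (40.1 CPM), Fgf10 (27.7 CPM), Pdgfra (1976 CPM), Smad7 (18 CPM), Tgfb3 (119 CPM), Tgfbr3 (472 CPM), Tgm2 (198 CPM) and Timp1 (439 CPM). C1qtnf3 in TGFβ replicate 2 compares with 21.2 to 39.4 CPM in the other TGFβ replicates.

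Of the remaining 8, TGFβ replicate 1 stood apart for Gm32255 (20.0 CPM), Itga2 (8.22 CPM) and Lif (76.1 CPM), and TGFβ replicate 3 for Mmp27 (0.908 CPM). In the bFGF group, replicate 1 stood apart for Eln (814 CPM) and Ptgs2 (17.1 CPM), and replicate 4 for Gm11361 (7.42 CPM) and Vwf (0.419 CPM).

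The contrast differed between iCre and LacZ cells by the interaction test for 18 named genes, with log2 values (iCre minus LacZ) of 1.00 (Ccl2), 1.12 (Col7a1), 0.77 (Cyp51), 1.06 (Dusp4), 1.45 (Eln), 1.53 (Etv4), 2.45 (Gm11361), -2.94 (Gm36298), 0.85 (Id1), -1.72 (Lum), -0.79 (Nox4), 2.17 (Olfm2), 1.09 (Shmt1), -0.66 (Skil), 2.63 (Smoc2), -3.17 (Snhg14), 1.35 (Tagln) and -3.26 (Zfp808). The GC slope of the iCre libraries with TGFβ differed from that of the 12 other libraries. With the GC correction 9 of the 18 kept the call (Ccl2, Cyp51, Gm11361, Gm36298, Olfm2, Shmt1, Smoc2, Snhg14 and Zfp808) and 9 lost it. Without the replicate block 8 kept it, with the spread estimated over all 40 libraries 12 kept it, and without replicate 1, 2, 3 or 4 the number was 10, 18, 5 and 4.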

How the results depend on the processing

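The comparison of TGFβ with bFGF in LacZ cells called 7932 genes with the replicate block and 6302 without it (3132 higher, 3170 lower). It called 8076 with DESeq2 (6768 adjusted p-values missing), 7930 with RLE scaling, 8083 with the filterByExpr filter, 7807 with no filter, 7578 among protein-coding genes, 8137 with a GC correction and 9956 with the spread estimated over all 40 libraries. Leaving out 1 replicate gave 5437 (without replicate 3) to 7370 (without replicate 2), with 2585 to 3690 higher and 2852 to 3680 lower. Leaving out replicate 1, whose library names have their own number range, gave 6201. With edgeR's legacy quasi-likelihood fit, also chosen after seeing the data, it called 7891 (3823 higher, 4068 lower), and the 134 named genes called here all kept the call. With raw library sizes, chosen after seeing the data, 1785 were higher and 7920 lower. Requiring a change of at least 1 on the log2 scale gave 3420 (1157 higher, 2263 lower), and 5083 for TGFβ and 1985 for bFGF against no ligand, 4211 in iCre cells and 462 for the interaction. For bFGF against no ligand the count was 3173 without the replicate block and 3805 (without replicate 3) to 7291 (without replicate 2) leaving out 1 replicate. The interaction gave 919 without the replicate block, 818 with the GC correction, 3346 with DESeq2 and 611 (without replicate 3) to 2371 (without replicate 2). The cause of these shifts was not tested.

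Of 138 named genes 134 were called between the ligands, and 18 of these lost the call without the replicate block (Aldoc, Ccn2, Cdh5, Cemip, Col14a1, Csf1r, Cyp2f2, Dcn, Fap, Fgf10, Lyz2, Mylk, Rgs5, Tek, Tgm2, Tnni3, Tyms and Zfp808). With DESeq2 all 134 kept it. Leaving out replicate 1, 2, 3 or 4 lost it for 6, 5, 8 and 5 genes (Adam12, Ccl11, Col14a1, Col3a1, Dcn, Dkk1, Has3, Mylk, Tek, Tyms, Vwf and Zfp808 in all). The direction turned only for genes that were not called. Gm36298 was 0.025 with the GC correction and -0.25 to 0.035 leaving out 1 replicate. Smoc2 was -0.10 with raw library sizes and -0.15 to 0.63 leaving out 1 replicate. Snhg14 was -0.26 with raw library sizes and -0.051 to 0.20 leaving out 1 replicate. The difference in share of reads ranged from 2.90 to 3.51 percentage points for collagens, 0.904 to 1.30 for contractile genes and 3.62 to 4.03 for matricellular genes when 1 replicate was left out, where 3 against 3 cannot go below an exact p of 0.1, and from -0.149 to -0.0268 for mitochondrial transcripts. With the pairs kept in the permutation, the differences of 3.27, 1.15 and 3.84 points for collagens, contractile and matricellular genes had an exact p of 0.125, the smallest possible with 4 pairs.

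Depth limits the low genes, since a fold against a group with few reads (Cyp2f2, Cacna1i, Dkk1, Mmp1a, Fgf13) rests on those reads. The 4 replicates per group, the single dose and time per ligand and the unequal doses limit what the contrast can show.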
